A study of Mus musculus with 6 samples.

Results

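The arrays compared here are 4 of the 6 in a study of USP7 inhibition in macrophages, namely both arrays of untreated cells and both arrays of cells that received the USP7 inhibitor HBX41,108 followed by lipopolysaccharide (LPS+USP7i). They were chosen by the titles of the samples, and no mean of cells given LPS alone enters a difference reported here, although those arrays were part of the normalization and of the estimate of the spread. All cells were wild type bone marrow–derived macrophages (BMDMs) of female mice, whose strain is written C57/B6 or C57BL/6 in the labels and C57BL6/J in the paper, grown from bone marrow over 7 days in medium conditioned by L929 fibroblasts, a source of the macrophage growth factor M-CSF. Such a culture is a population of primary macrophages with whatever other bone marrow cells it still holds. The labels give an age of 6 to 8 weeks for the mice and the paper 8 to 12 weeks. The LPS+USP7i cells were given 10 μM HBX41,108 for 30 min and then LPS, and LPS was present for 4 h. The dose of LPS was 100 ng/ml in the series design and in the paper, whereas the labels' protocol writes the same figure per μl. Untreated cells received neither agent, and the sources used here do not say whether they received the solvent of the inhibitor. A difference between these groups therefore joins the response to LPS that remained under the inhibitor, any response to the inhibitor itself, and any effect of the solvent, and these cannot be told apart. The 2 arrays of a group came from independent experiments according to the series design.

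LPS is sensed by TLR4, a receptor of the innate immune system that signals along a pair of adaptor routes. The MyD88 route activates NF-κB, a family of transcription factors (p65, c-Rel, RelB, p50, and p52) that are held in the cytoplasm by IκB proteins until these are degraded, and that drive genes of cytokines, chemokines, and their own inhibitors. The TRIF route activates IRF3, induces interferon-β, and through it the interferon-stimulated genes. USP7 is a deubiquitinase, an enzyme that removes ubiquitin from proteins, and its known substrates include p65, p53, and the p53 ubiquitin ligase MDM2. HBX41,108 is a small molecule that blocks USP7 activity. Cells under chemical stress are known to use other programs as well, among them NRF2, which raises antioxidant enzymes, HSF1, which raises heat shock proteins, and NRF1, which raises subunits of the proteasome.

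The promoters of 5 genes described below are shown first, because they hold short elements that these factors are known to bind. They were taken from RefSeq on build GRCm38.p6, with 250 bases before and 50 after the start of the gene. Capitals mark every match, on either strand, to 1 of 4 motifs: a κB element (GGGA and TTCC with any 2 bases between them, bound by NF-κB), an interferon-stimulated response element (GAAA and GAAA with any 2 bases between them, bound by IRF and STAT factors), an antioxidant response element (TGAC and GC with any 3 bases between them, bound by NRF2), and a heat shock element (GAA, TTC, and GAA with any 2 bases between neighbors, bound by HSF1). Matches to different motifs did not overlap in these 5 promoters. Of all 32851 promoters of this length, 1.47% held the κB element, 3.44% the interferon-stimulated response element, 12.4% the antioxidant response element, and 0.603% the heat shock element. *Il6* and *Cxcl2* stand for the κB element in a cytokine and in a chemokine, *Cxcl10* and *Gbp5* for promoters with both a κB and an interferon-stimulated response element, and *Gclm* for an antioxidant gene.
Il6, chr5:30012864-30013163, plus strand: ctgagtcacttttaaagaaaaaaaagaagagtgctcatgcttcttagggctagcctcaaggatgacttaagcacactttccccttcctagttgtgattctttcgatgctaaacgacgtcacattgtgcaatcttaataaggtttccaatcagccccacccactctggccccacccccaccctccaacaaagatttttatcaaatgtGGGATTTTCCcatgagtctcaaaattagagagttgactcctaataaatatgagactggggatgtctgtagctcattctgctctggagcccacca
Cxcl2, chr5:90903649-90903948, plus strand: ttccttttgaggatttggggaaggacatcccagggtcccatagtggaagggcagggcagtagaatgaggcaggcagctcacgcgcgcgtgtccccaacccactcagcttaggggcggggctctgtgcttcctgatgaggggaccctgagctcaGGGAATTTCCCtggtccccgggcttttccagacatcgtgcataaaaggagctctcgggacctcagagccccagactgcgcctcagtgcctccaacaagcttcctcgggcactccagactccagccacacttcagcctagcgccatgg
Cxcl10, chr5:92348840-92349139, minus strand: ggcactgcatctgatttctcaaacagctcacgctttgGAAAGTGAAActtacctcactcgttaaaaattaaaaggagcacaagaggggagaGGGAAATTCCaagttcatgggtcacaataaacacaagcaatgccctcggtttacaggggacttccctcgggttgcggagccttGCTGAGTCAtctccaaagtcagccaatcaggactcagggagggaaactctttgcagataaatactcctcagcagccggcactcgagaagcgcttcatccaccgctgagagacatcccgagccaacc
Gbp5, chr3:142496684-142496983, plus strand: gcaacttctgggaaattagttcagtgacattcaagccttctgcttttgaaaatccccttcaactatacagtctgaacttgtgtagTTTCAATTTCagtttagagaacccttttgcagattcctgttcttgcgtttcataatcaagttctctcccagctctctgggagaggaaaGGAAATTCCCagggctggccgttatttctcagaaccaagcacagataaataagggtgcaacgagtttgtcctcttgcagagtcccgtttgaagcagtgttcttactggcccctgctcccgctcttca
Gclm, chr3:122245307-122245606, plus strand: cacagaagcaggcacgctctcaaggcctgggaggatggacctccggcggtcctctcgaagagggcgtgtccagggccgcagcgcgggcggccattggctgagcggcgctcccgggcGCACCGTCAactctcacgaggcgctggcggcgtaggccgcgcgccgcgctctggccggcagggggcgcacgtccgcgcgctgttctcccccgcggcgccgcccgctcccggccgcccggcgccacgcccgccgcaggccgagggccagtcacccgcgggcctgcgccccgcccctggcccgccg
The κB match of *Il6* is GGGATTTTCC and that of *Cxcl10* is GGGAAATTCC. In *Cxcl2* the matches on both strands overlap. *Cxcl10* holds an antioxidant response element match as well. Among the 12 genes with the largest increases described below, 11 had a promoter in the table, and 3 of these held the κB element and 3 the interferon-stimulated response element. Of the 10 promoters found for the 12 largest decreases, that of *Il16* held the κB element. A match describes the letters in this window and is not a measured site.

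Gene expression was read on 1-color Agilent mouse arrays, on which 59305 spots represented 55681 probes, and values are given as normalized signal on the log2 scale, so that a difference of 1 is a 2-fold change. All arrays lay on 1 slide, and the group coincided with the row of the slide, so an effect of row cannot be told apart from that of the treatment. Between 25290 and 27467 spots were well above background on the 4 arrays, and 0 were saturated. Replicates correlated with r = 0.996 in untreated and 0.991 in LPS+USP7i cells over 20721 probes. Macrophage markers were present on every array, with 8 of 8 well above background.

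Over the 22229 genes with a RefSeq name, each represented by its probe with the highest signal, 1588 genes were higher in LPS+USP7i than in untreated cells and 2662 were lower, with an adjusted p under 0.05 by limma. These are 7.14% and 12% of the genes tested, the shares set beside the list counts below. At an unadjusted p under 0.05 the counts were 2897 and 4798. Both shares were larger among detected genes. Of 12030 genes well above background on all 4 arrays, 1326 were higher and 2376 lower. Of 8210 genes not well above background on any of the 4 arrays, 149 were called. Most lists below hold mainly detected genes, for which 7.14% and 12% are low as a background. Fewer genes were higher than lower, but increases reached further. Of the higher genes, 231 differed by at least 3 on the log2 scale and 49 by at least 5, whereas of the lower genes 39 differed by at least 3 and 0 by at least 5. The median difference was 1.33 for the higher genes, −1.01 for the lower genes, and −0.014 for all genes. The fit took its spread from all 6 arrays. When the 4 arrays were normalized and fitted alone, 976 genes were higher and 1660 lower. Leaving out untreated replicate 1 gave 469 higher and 664 lower, and leaving out untreated replicate 2 gave 362 and 431, and the counts of most lists below fell likewise without either. The share of higher genes among the calls was 37.4%, and when signals were scaled to their 75th percentile instead it was 71.8% (7549 higher and 2958 lower), where 4870 of the higher genes were not well above background on any of the 4 arrays. That scaling moved the median difference of all probes from 0 to 0.546.

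**Figure D1:**
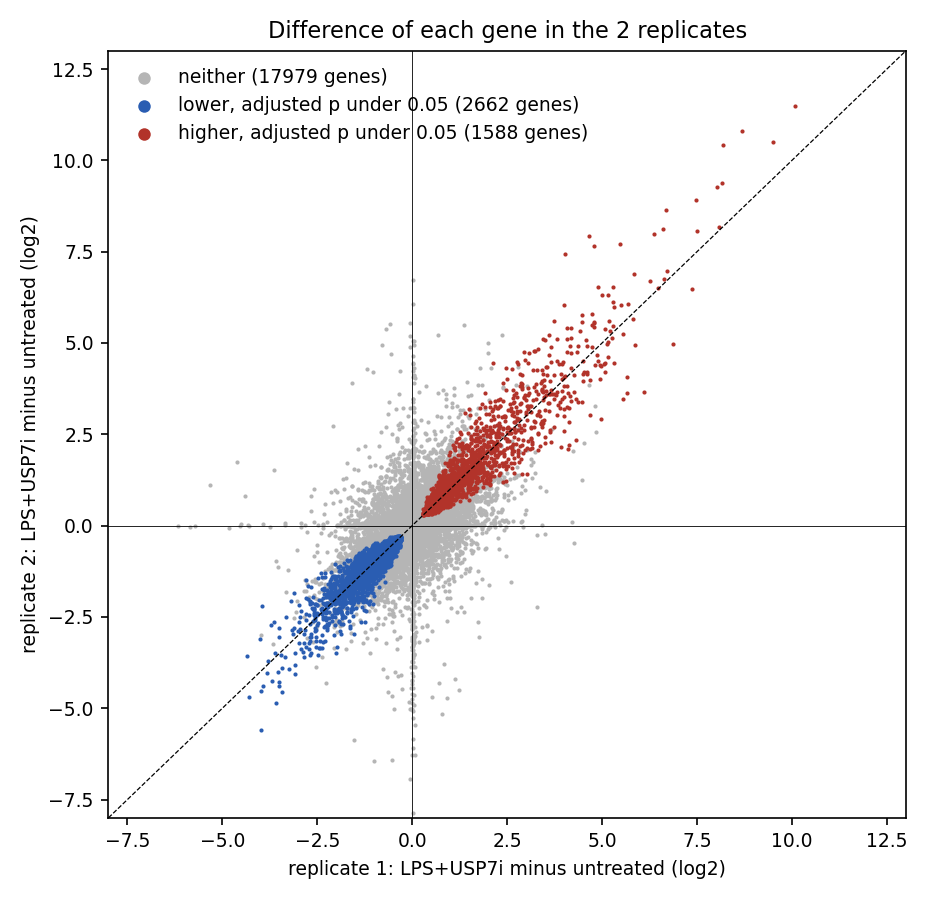
Difference of each of 22229 genes (LPS+USP7i minus untreated, log2) in replicate 1 on the x axis and in replicate 2 on the y axis. Each point is a gene, red points are the 1588 higher and blue points the 2662 lower genes, gray points passed in neither direction, and the dashed line marks equal values; the red points extend much further from 0 than the blue points.

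Genes of inflammatory cytokines were much higher in LPS+USP7i than in untreated cells. Of 21 pro-inflammatory cytokine genes, 14 rose and 7 did not pass the threshold, and their median difference was 2.58 (2.16 in replicate 1 and 3.34 in replicate 2), against −0.014 for all genes, and 1.56 after normexp background correction. With the 4 arrays alone 7 passed, and without untreated replicate 1 or 2, 5 and 4 passed. *Tnf*, the gene of the cytokine that is released early by macrophages, had a level of 9.43 and 9.14 in untreated cells and of 16.14 and 16.10 in LPS+USP7i cells. It rose by 6.83 (standard error 0.12, adjusted p = 0.00384), and its replicates were almost equal. *Il6*, which encodes the driver of the acute-phase response, stood at 5.44 and 4.54 and then at 13.63 and 14.95. Its increase was 9.30 (standard error 0.57, adjusted p = 0.00644), and LPS+USP7i replicate 2 was the higher. In the main setting this increase was the largest among genes well above background on all 4 arrays. Under the alternatives the difference of *Il6* ran from 7.58 to 9.96 and that of *Cxcl10* from 8.22 to 9.07, so this rank depends on the setting. *Tnf* and *Il6* passed the threshold in all 15 alternatives.

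The other cytokines were less uniform. *Il1b*, the gene of the inflammasome-processed cytokine IL-1β, had 6.34 and 4.94 in untreated and 11.12 and 12.59 in LPS+USP7i cells. Its difference of 6.21 (adjusted p = 0.0169) passed in 9 of 15 alternatives, and not without either untreated array, without LPS+USP7i replicate 2, without either LPS array, or with the 4 arrays alone, with an adjusted p of up to 0.0732. *Il1a*, the sister cytokine, was below reliable detection in untreated cells, meaning not well above background on either array, and was at least 22.2-fold higher with LPS+USP7i (adjusted p = 0.0076). *Il12b*, the p40 subunit shared by IL-12 and IL-23, was the exception among the leading cytokines. Its arrays read 7.19 and 6.13 in untreated and 7.54 and 9.96 in LPS+USP7i cells, so that LPS+USP7i replicate 1 lay close to untreated replicate 1. The difference of 2.09 had a standard error of 0.96 and an adjusted p of 0.307, and it passed in 0 of 15 alternatives. *Tnfsf9*, which encodes the T cell ligand 4-1BBL, went from 8.32 and 8.35 to 12.32 and 12.42, an increase of 4.04 (adjusted p = 0.00443).

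Of 6 neutrophil-attracting chemokines 4 rose. The median difference was 8.02, or 5.47 after normexp background correction, and it rests on untreated levels at or near background. *Cxcl1* had a level of 4.57 and 3.59 in untreated and of 14.64 and 15.08 in LPS+USP7i cells, a difference of 10.78 (adjusted p = 0.00443). *Cxcl2* differed by 10.01 and *Cxcl3* by 9.75, and each of these 3 genes was well above background on 1 of the 2 untreated arrays, so the low end of the difference rests on a single measured array. *Cxcl5*, below reliable detection in untreated cells, was at least 55.0-fold higher (adjusted p = 0.0422), with 8.51 in LPS+USP7i replicate 1 and 10.87 in replicate 2, and it passed in 7 of 15 alternatives. These genes encode ligands of the receptor CXCR2 on neutrophils.

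Of 19 chemokines that attract monocytes and lymphocytes, 8 rose and 11 did not pass, with a median of 0.86, and 5 rose without LPS+USP7i replicate 2. With dim probes left out 10 of 17 rose and the median was 2.04, whereas after normexp it was 0.50, and under 75th percentile scaling 12 rose. *Cxcl10*, an interferon-inducible ligand for the T cell receptor CXCR3, read 9.78 and 8.93 in untreated and 17.81 and 18.20 in LPS+USP7i cells. It rose by 8.65 (adjusted p = 0.00454) and passed in all 15 alternatives. *Ccl5* (RANTES) rose by 4.60 (adjusted p = 0.00619) and the monocyte attractant *Ccl12* by 5.74 (adjusted p = 0.00522). *Ccl2*, the main ligand of CCR2, had 11.90 and 14.02 in untreated and 16.71 and 17.29 in LPS+USP7i cells. Its difference of 4.04 did not pass (adjusted p = 0.0554), although it passed in 7 of 15 alternatives, and the untreated arrays lay far apart. *Cxcl9* was below reliable detection in untreated cells and was at least 30.7-fold higher (adjusted p = 0.03), and it passed in 8 of 15 alternatives.

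**Figure D2:**
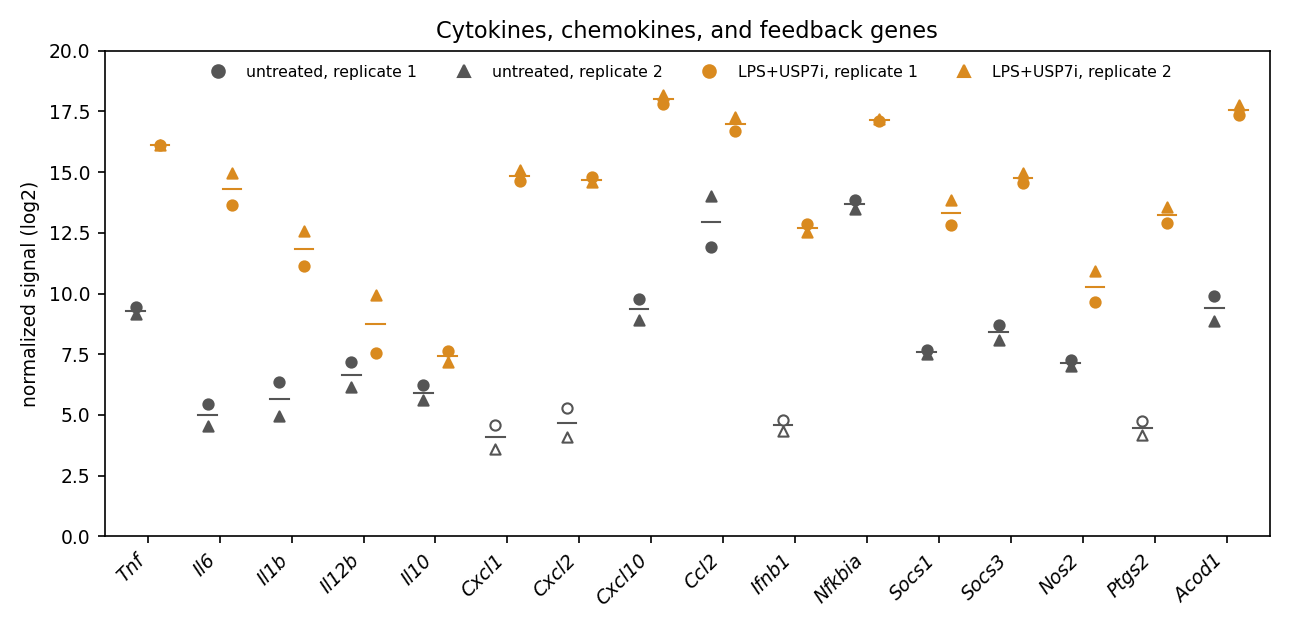
Normalized signal (log2, y axis) of 16 cytokine, chemokine, and feedback genes on each array, with untreated cells in gray and LPS+USP7i cells in orange, circles for replicate 1, triangles for replicate 2, and lines for group means. Open symbols mark a group with at least 1 array not well above background; the *Tnf* points rise from about 9.43 to about 16.14, while the gaps of *Il12b* (2.09) and *Il10* (1.50) are the smallest shown.

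Genes that restrain inflammation rose alongside. Of 25 genes of anti-inflammatory cytokines and feedback inhibitors, 19 rose, with a median difference of 2.36, and 16 did so with the 4 arrays alone and 10 without untreated replicate 2. *Socs3*, an inhibitor of cytokine receptor signaling, rose from 8.70 and 8.10 to 14.53 and 14.98, a difference of 6.36 (adjusted p = 0.00498). Its relative *Socs1* rose by 5.73 (adjusted p = 0.00695), and *Cish* by 4.66 (adjusted p = 0.0147). *Tnfaip3*, which encodes the ubiquitin-editing enzyme A20 that shuts off NF-κB signaling, had 10.60 and 10.71 in untreated and 15.08 and 15.23 in LPS+USP7i cells. It rose by 4.50 (standard error 0.08, adjusted p = 0.00384), with replicates close together in both groups. *Zfp36*, whose product destabilizes cytokine mRNA, rose by 2.36 (adjusted p = 0.00686). *Il10*, the gene of the main anti-inflammatory cytokine, had 6.23 and 5.60 against 7.65 and 7.19, and its difference of 1.50 did not pass (adjusted p = 0.128), although it passed in 2 of 15 alternatives.

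Among 15 genes of NF-κB subunits and IκB proteins, 12 rose, with a median of 1.70, and 10 did so with the 4 arrays alone. The inhibitors moved more than p65. *Nfkbia*, which encodes IκBα and is itself an NF-κB target, rose from 13.86 and 13.49 to 17.13 and 17.18, a difference of 3.48 (adjusted p = 0.0048). *Nfkbie* (IκBε) rose by 3.57 (adjusted p = 0.00536) and *Nfkbiz* (IκBζ), a nuclear cofactor of secondary response genes, by 4.07 (adjusted p = 0.00695). *Nfkb1*, the gene of p105 and p50, rose by 1.70 (adjusted p = 0.00636). *Rela*, which encodes p65, went from 14.75 and 14.70 to 15.13 and 15.19, an increase of 0.44 (adjusted p = 0.0232) that was 0.85 under 75th percentile scaling. It passed in 7 of 15 alternatives, and not with the deposited values, with the 4 arrays alone, or when any of the 6 arrays was left out. *Rel*, the gene of c-Rel, was below reliable detection in untreated cells and was at least 2.21-fold higher (adjusted p = 0.00543).

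The receptors and adaptors upstream moved both ways. Of 28 genes of the TLR4 pathway and of Toll-like receptors, 6 rose and 5 fell, with the 4 arrays alone 2 rose and 2 fell, and without either untreated array 1 rose and 1 fell. With 75th percentile scaling 11 rose and 6 fell. *Tlr4* itself had 11.63 and 11.49 in untreated and 11.10 and 11.44 in LPS+USP7i cells, a difference of −0.29 (adjusted p = 0.322). *Tlr2*, the receptor for bacterial lipoproteins, rose by 2.66 (adjusted p = 0.00644). The endosomal receptor gene *Tlr13* fell by 1.05 (adjusted p = 0.0174), and *Tab1*, the gene of a subunit of the TAK1 kinase complex, fell by 1.77 (adjusted p = 0.00509). Of 22 immediate early transcription factors 5 rose, 2 without either untreated array, 9 with dim probes left out, and 11 under 75th percentile scaling, and after normexp 8 rose and 1 fell. *Fosl1*, an AP-1 subunit below reliable detection in untreated cells, was at least 94.8-fold higher (adjusted p = 0.00454), and the small MAF gene *Maff* rose by 5.41 (adjusted p = 0.00513). *Fos* had a difference of −0.50 and *Atf3* of 0.21, with adjusted p values of 0.164 and 0.215. Under 75th percentile scaling that of *Atf3* was 0.64 and passed (adjusted p = 0.00931 by limma). *Atf3* had levels of 15.15 and 15.11 in untreated cells already.

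Interferon-stimulated genes rose in large part. *Ifnb1*, the gene of interferon-β, read 4.80 and 4.34 in untreated and 12.87 and 12.52 in LPS+USP7i cells, a difference of 8.12 (adjusted p = 0.00509), with 1 untreated array well above background. Of 47 interferon-induced antiviral genes, 25 rose and 22 did not pass, and the median difference was 1.05 (0.78 in replicate 1 and 1.41 in replicate 2). With the 4 arrays alone 15 passed, and without untreated replicate 2, 9 passed. Scaling to the 75th percentile gave 39 higher. *Rsad2* (viperin) rose from 11.95 and 11.27 to 16.93 and 17.57, a difference of 5.64 (adjusted p = 0.00636). *Mx2* and *Oasl1* rose by 5.17 each, *Ifit1* by 5.02, and the ubiquitin-like modifier gene *Isg15* by 3.19, with adjusted p values between 0.0046 and 0.00986. *Usp18*, the deISGylase that dampens interferon signaling, rose by 1.83 (adjusted p = 0.0188) and passed in 9 of 15 alternatives.

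The interferon-induced GTPases, which attack vacuoles of intracellular microbes, had a median difference of 2.71 (1.78 in replicate 1 and 3.38 in replicate 2), and 9 of 15 rose. With the 4 arrays alone 4 passed, and without untreated replicate 1 or 2, 3 and 1 passed. *Gbp5*, a guanylate-binding protein, had 7.26 and 6.36 in untreated and 13.63 and 14.35 in LPS+USP7i cells. It rose by 7.17 (adjusted p = 0.00621) and passed in all 15 alternatives. *Gbp2* rose by 4.00 (adjusted p = 0.0124) and *Gbp3* by 3.72 (adjusted p = 0.00828). *Iigp1* rose by 2.23 (adjusted p = 0.0482) and passed in 7 of 15 alternatives. In contrast to these lists, 0 of 12 MHC class II genes and 0 of 18 MHC class I genes passed by limma, and at an unadjusted p under 0.05 the lower and higher counts were 1 and 0 for class II and 2 and 1 for class I. Under 75th percentile scaling 3 class I genes rose and 1 fell, with a median that went from 0.05 to 0.45, and with the replicate block 1 class II gene fell.

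Of 17 genes of enzymes for nitric oxide, itaconate, and prostaglandins, 7 rose and 10 did not pass, with a median of 0.44 that was 1.30 with dim probes left out and 1.38 with the mean of probes, and with the replicate block 8 rose and 2 fell. *Acod1*, which makes itaconate, had 9.90 and 8.88 in untreated and 17.37 and 17.78 in LPS+USP7i cells, an increase of 8.19 (adjusted p = 0.00536). *Ptgs2* (COX-2), the inducible prostaglandin synthase, differed by 8.77 (adjusted p = 0.00454), with 1 untreated array well above background. *Nos2*, the inducible nitric oxide synthase, had 7.25 and 7.04 against 9.64 and 10.94, a difference of 3.15 (adjusted p = 0.0283) that passed in 10 of 15 alternatives, and not without either untreated array, without either LPS array, or with the 4 arrays alone.

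Of 12 costimulatory and activation molecules, 10 rose, with a median of 2.41, 9 did so with the 4 arrays alone and 4 without either untreated array. The T cell ligand *Tnfsf4* (OX40L) was below reliable detection in untreated cells, with 4.01 and 3.91, and had 11.49 and 11.97 in LPS+USP7i cells. It was at least 215.5-fold higher (adjusted p = 0.00384), the largest lower bound in the comparison. *Cd69*, an early activation marker, rose by 7.37 (adjusted p = 0.00817) and *Cd40* by 4.54 (adjusted p = 0.00931). *Cd86* rose by 1.19 (adjusted p = 0.0267) and passed in 10 of 15 alternatives, which do not include the replicate block. Its relative *Cd80* was called lower by 1.10 on the represented probe (adjusted p = 0.017), while its other probe was called higher, and the mean of both gave 0.13, so its direction is not settled. Of 16 adhesion and integrin genes 5 rose and 2 fell, and without either untreated array 3 rose and 0 fell by limma. *Vcam1* was at least 89.8-fold higher (adjusted p = 0.00693) and *Icam1* rose by 3.35 (adjusted p = 0.00591).

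The inflammasome genes split. *Nlrp3*, the sensor, rose from 5.21 and 5.66 to 10.29 and 10.12, a difference of 4.76 (adjusted p = 0.00552), and *Casp4*, the LPS-binding caspase of the noncanonical route, rose by 2.29 (adjusted p = 0.011). *Pycard*, which encodes the adaptor ASC, fell from 14.17 and 14.26 to 12.54 and 12.93 (adjusted p = 0.0144). *Txnip* fell by 2.09 (adjusted p = 0.0144). Of the 14 genes in the list, 4 rose and 3 fell, and without untreated replicate 2 the counts were 2 and 0 by limma. Secreted proteases, coagulation and growth factors rose in 9 of 27 cases and fell in 1, and without untreated replicate 1 or 2, 5 and 6 rose, while 4 fell with dim probes left out, 5 after normexp, and 2 with the replicate block. *Serpinb2*, a protease inhibitor induced in activated macrophages, went from 4.47 and 4.38 to 10.94 and 10.88, an increase of 6.48 (adjusted p = 0.00509). Its untreated levels lay near background, and the smallest difference under the alternatives was 4.53. *Plaur*, the urokinase receptor, rose by 3.22 (adjusted p = 0.0114). *Adamts4*, an aggrecanase, was at least 59.2-fold higher (adjusted p = 0.0216), with 8.62 and 10.97 in LPS+USP7i cells. It passed in 10 of 15 alternatives, and not with the 4 arrays alone. *Edn1* (endothelin-1) was at least 20.7-fold higher (adjusted p = 0.00813), and the EGF receptor ligand *Areg* at least 7.33-fold (adjusted p = 0.00581).

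**Figure D3:**
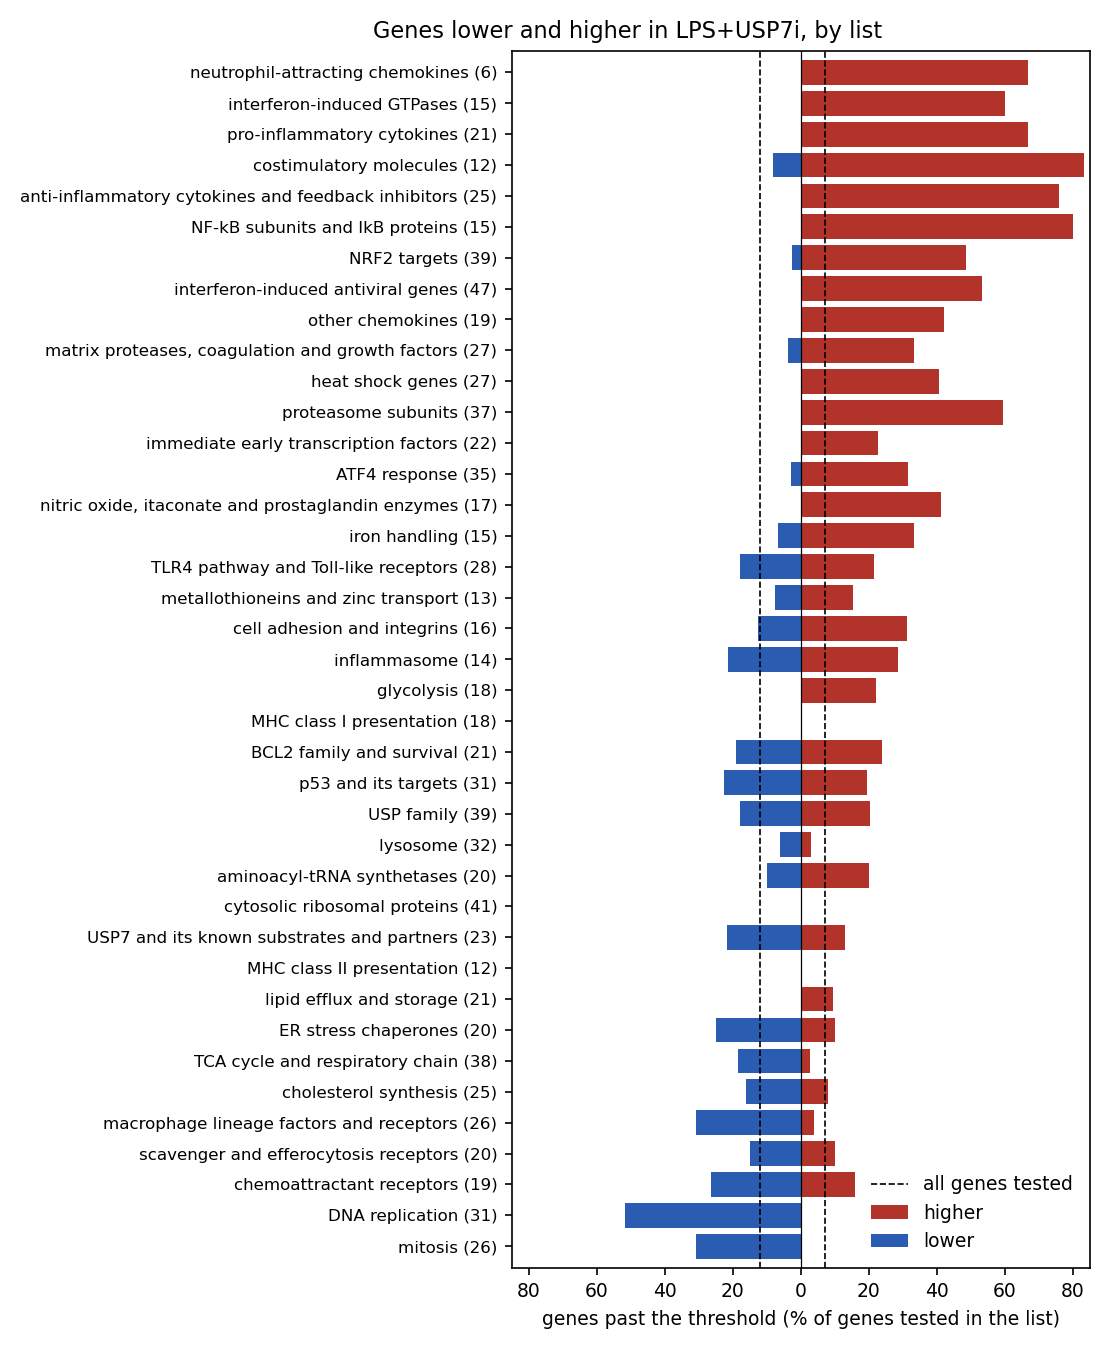
Share of the genes of 39 lists that passed the threshold (%, x axis), with genes lower in LPS+USP7i than in untreated cells to the left in blue and genes higher to the right in red, ordered by the median difference and with the number of genes tested in brackets. The dashed lines mark the shares over all genes tested, 12% lower and 7.14% higher; cytokine, NF-κB, interferon, NRF2, and proteasome lists lie well to the right, and DNA replication (51.6% lower) lies furthest to the left.

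Genes of the NRF2 antioxidant program formed a further group of increases. Of 39 targets, 19 rose, 1 fell, and 19 did not pass, with a median of 1.16 (1.02 in replicate 1 and 1.39 in replicate 2). With the 4 arrays alone 14 rose, and without untreated replicate 1 or 2, 11 and 8 rose. *Slc7a11*, the cystine transporter that feeds glutathione synthesis, had 4.78 and 5.15 in untreated and 10.45 and 11.22 in LPS+USP7i cells. It rose by 5.88 (standard error 0.34, adjusted p = 0.00626) and passed in all 15 alternatives, with 4.22 as the smallest difference. *Slc7a11* was the only gene of this list among the 12 largest increases. *Hmox1*, which encodes heme oxygenase-1, read 14.67 and 14.24 against 18.07 and 18.15, an increase of 3.65 (adjusted p = 0.0074). *Srxn1* (sulfiredoxin) had 14.13 and 13.66 against 17.17 and 17.44 and rose by 3.41 (adjusted p = 0.0101). The groups did not overlap for any of the 3 genes, but the rule for the 12 largest increases required this of *Slc7a11*. With 2 arrays in a group such a separation carries little weight, since an exact permutation test cannot go below p = 0.333.

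*Gclm*, the modifier subunit of the enzyme that starts glutathione synthesis, had 9.90 and 9.15 in untreated and 12.75 and 12.96 in LPS+USP7i cells. Its difference of 3.33 (adjusted p = 0.025) passed in 11 of 15 alternatives, and not when any of the 4 arrays was left out, with an adjusted p of up to 0.108. *Procr*, the protein C receptor, rose by 3.56 (standard error 0.10, adjusted p = 0.00384). *Nqo1*, the quinone reductase that is often used as an NRF2 readout, had 7.98 and 7.24 against 9.04 and 9.36. Its difference of 1.59 did not pass (adjusted p = 0.0755), though it passed in 4 of 15 alternatives. *Blvra*, biliverdin reductase, was the member that fell, by 0.49 (adjusted p = 0.0262), in 6 of 15 alternatives. Among related iron genes, the iron exporter *Slc40a1* rose by 1.89 (adjusted p = 0.0378), the ferritinophagy receptor gene *Ncoa4* fell by 1.26 (adjusted p = 0.0127), and the transferrin receptor *Tfrc* had a difference of 0.34 (adjusted p = 0.745) with overlapping groups. Of the 15 iron genes 5 rose and 1 fell, and without either untreated array 2 rose. Of 13 metallothionein and zinc transport genes 2 rose and 1 fell, without either untreated array 1 rose and 0 fell by limma, and under 75th percentile scaling 5 rose and 1 fell.

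Heat shock genes rose in part. Of 27 tested, 11 rose and 16 did not pass, with a median of 0.65. With the 4 arrays alone 7 rose, and under 75th percentile scaling 18 rose. The count rested on the untreated arrays, with 2 rising without untreated replicate 1 and 0 without untreated replicate 2 by limma, while the median stayed at 0.65 in both. *Hspa1a*, an inducible HSP70, had 8.24 and 8.36 in untreated and 13.88 and 12.44 in LPS+USP7i cells. It rose by 4.86 (adjusted p = 0.0143), and LPS+USP7i replicate 1 was the higher. *Hspb1* (HSP27) had 5.63 and 5.94 against 10.71 and 10.15 and rose by 4.65 (adjusted p = 0.0079). *Dnajb4*, an HSP40 cochaperone, rose by 3.02 (adjusted p = 0.0183). The constitutive and inducible HSP40 *Dnajb1* had a difference of 0.48 (adjusted p = 0.18), and *Hsph1* (HSP110) of 1.28 (adjusted p = 0.0568). *Dnajb1* passed in 1 and *Hsph1* in 7 of 15 alternatives. *Hspa1a* has a near-identical neighboring copy, and its probe may read both.

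Proteasome subunits moved little per gene but with a shared sign. In 36 of 37 genes the difference was positive, 22 rose (59.5% against 7.14% of all genes), and the median was 0.54 (0.49 in each replicate). With the 4 arrays alone 12 passed, with the deposited values 10, and without either untreated array 3. Scaling to the 75th percentile instead gave 35 higher, with a median of 0.80. *Psmd11*, a lid subunit of the 19S regulatory particle, had 10.97 and 11.01 in untreated and 12.96 and 13.05 in LPS+USP7i cells, an increase of 2.02 (standard error 0.06, adjusted p = 0.00384). *Psmd5*, a 19S assembly chaperone, rose by 1.45 (adjusted p = 0.00451), the lid subunit *Psmd7* by 1.23 (adjusted p = 0.00626), and the 20S core subunit *Psma5* by 1.23 (adjusted p = 0.00999). The core subunit *Psma1* had a difference of 0.28 (adjusted p = 0.166).

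Stress genes of the ATF4 and ER pathways were mixed. Of 35 ATF4 response genes, 11 rose and 1 fell, with a median of 0.49, with the 4 arrays alone 3 rose, and without either untreated array 0 rose by limma, although the full set of arrays gave 17 genes higher with an unadjusted p under 0.05. With 75th percentile scaling 17 rose and 1 fell. *Gdf15*, a stress-induced cytokine, had 11.54 and 11.85 against 15.03 and 14.11 and rose by 2.88 (adjusted p = 0.0191). *Ppp1r15a* (GADD34), which restores translation, rose by 2.69 (adjusted p = 0.0228), and the asparagine synthetase *Asns* by 1.72 (adjusted p = 0.00827). The factor *Atf4* had a difference of 0.51 on the represented probe (adjusted p = 0.135), while its other probe was called higher. Under 75th percentile scaling the difference of the represented probe was 0.95 (adjusted p = 0.00675 by limma). *Ddit3* (CHOP), a target of the pathway, had a difference of 0.01 with overlapping groups. Of 20 ER chaperones and related genes, 2 rose and 5 fell, and none of them passed by limma without either untreated array. *Hspa5* (BiP) rose by 0.48 (adjusted p = 0.0172), *Dnajb9* rose by 1.67 (adjusted p = 0.0207), and *Xbp1* fell by 1.04 (adjusted p = 0.0215). Each of these 3 passed in 10 of 15 alternatives.

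**Figure D4:**
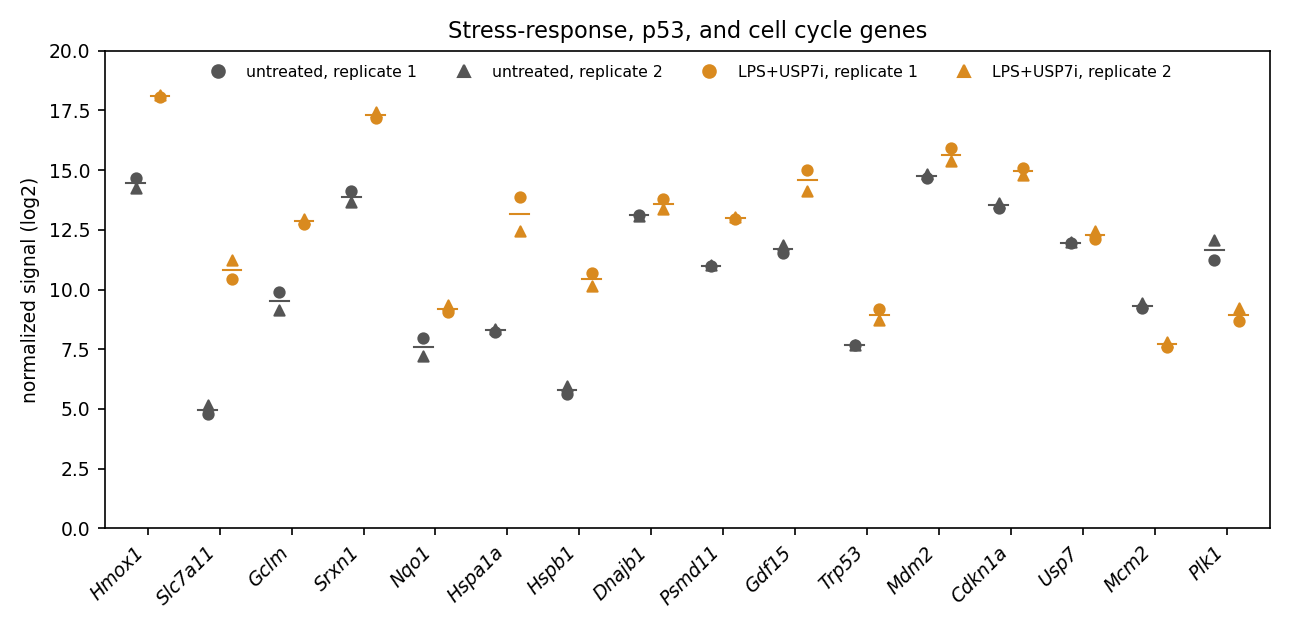
Normalized signal (log2, y axis) of 16 stress-response, p53, and cell cycle genes on each array, with untreated cells in gray and LPS+USP7i cells in orange, circles for replicate 1, triangles for replicate 2, and lines for group means. The groups are far apart for *Hmox1*, *Slc7a11*, *Hspa1a*, and *Hspb1*, close for *Usp7* (difference 0.30), and in the opposite order for *Mcm2* and *Plk1*.

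The target of the inhibitor and its substrates were examined at the level of mRNA, which does not measure the enzyme's activity. *Usp7* had 11.95 and 11.98 in untreated and 12.11 and 12.43 in LPS+USP7i cells, a difference of 0.30 (adjusted p = 0.258). Of 23 genes of USP7 and its known substrates and partners, 3 rose and 5 fell, with a median of −0.16 that was 0.04 under 75th percentile scaling, and without either untreated array 0 rose and 1 fell by limma. With 75th percentile scaling 6 of these genes rose and 5 fell. *Daxx*, a histone chaperone that USP7 binds, had 13.34 and 12.99 against 15.07 and 15.38 and rose by 2.06 (adjusted p = 0.0122). *Uhrf1*, a partner in the maintenance of DNA methylation, fell from 10.91 and 10.90 to 9.37 and 9.38 (adjusted p = 0.00437), and *Dnmt1*, the maintenance methyltransferase, fell by 0.88 (adjusted p = 0.0105). *Clspn* (claspin), a checkpoint mediator, was below reliable detection in LPS+USP7i cells and was at least 3.11-fold lower (adjusted p = 0.0247). Of 39 genes of the USP family, 8 rose and 7 fell, with a median of −0.06 that was 0.03 under 75th percentile scaling. With the 4 arrays alone 3 rose and 3 fell, and the counts were lower still without either untreated array, and lowest without untreated replicate 2. *Usp42* rose by 1.90 (adjusted p = 0.0269), *Usp47* by 1.74 (adjusted p = 0.01), and *Usp48* fell by 1.06 (adjusted p = 0.00732).

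The p53 list did not move in 1 direction. Of 31 genes, 6 rose and 7 fell, and the median of −0.05 became 0.24 under 75th percentile scaling, where 12 rose and 7 fell. Without either untreated array 1 rose and 2 fell. *Trp53* itself had 7.68 and 7.67 in untreated and 9.19 and 8.72 in LPS+USP7i cells, an increase of 1.28 (adjusted p = 0.0401) that passed in 8 of 15 alternatives, and not when any of the 6 arrays was left out. *Cdkn1a* (p21), the cell cycle inhibitor, rose by 1.43 (adjusted p = 0.0138). *Mdm2* had 14.68 and 14.85 against 15.93 and 15.38, a difference of 0.89 that did not pass (adjusted p = 0.0838). The death receptor gene *Fas* rose by 2.30 (adjusted p = 0.0282). In the opposite direction, *Sesn1* (sestrin 1) went from 13.61 and 13.29 to 9.79 and 9.26 and fell by 3.92 (adjusted p = 0.00626), *Btg2* fell by 1.47 (adjusted p = 0.0251), and *Bbc3* (PUMA) fell by 1.30 (adjusted p = 0.026).

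Genes that set the threshold of apoptosis moved in both directions. *Bcl2l11* (BIM), a BH3-only killer, rose from 8.87 and 8.86 to 11.62 and 11.74, a difference of 2.82 (adjusted p = 0.00399). *Bmf*, another BH3-only gene, had 10.16 and 9.86 in untreated and 5.87 and 5.16 in LPS+USP7i cells. It fell by 4.50 (standard error 0.31, adjusted p = 0.00725), in the main setting the largest decrease among genes well above background on all 4 arrays. Under the alternatives the difference of *Bmf* ran from −4.85 to −3.36 and that of *Sesn1* from −4.19 to −3.65, so this rank depends on the setting. *Mcl1*, a survival factor with a short-lived protein, fell by 1.07 (adjusted p = 0.0136), while the NF-κB targets *Gadd45b* and *Birc3* rose by 2.20 (adjusted p = 0.00443) and 1.52 (adjusted p = 0.0109). Of the 21 genes of the list, 5 rose and 4 fell, and fewer did so in each direction without untreated replicate 2. Under 75th percentile scaling 9 rose and 4 fell.

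Of 31 DNA replication genes, 16 fell (51.6% against 12% of all genes), with a median of −1.11, 10 fell with the 4 arrays alone, 9 without LPS+USP7i replicate 1, and 5 without either untreated array. *Mcm2*, a subunit of the replicative helicase, had 9.24 and 9.43 in untreated and 7.61 and 7.79 in LPS+USP7i cells and fell by 1.63 (adjusted p = 0.00697) in all 15 alternatives. *Chaf1a*, a chromatin assembly factor, fell by 1.90 (adjusted p = 0.00653). *Pcna*, the sliding clamp, had a difference of −0.04 (adjusted p = 0.966). All 26 mitosis genes had a negative difference, with a median of −1.89, and 8 passed. The medians of replicate 1 and 2 were −1.84 and −1.79, and with the replicate number, which is also the column of the slide, as a block 19 passed. The 4 arrays alone gave 2, leaving out untreated replicate 1 or 2 gave 4 and 1, and leaving out either LPS+USP7i array gave 0 by limma, while 22 had an unadjusted p under 0.05. *Plk1* (polo-like kinase 1) had 11.24 and 12.08 against 8.69 and 9.21 and fell by 2.71 (adjusted p = 0.0328) in 8 of 15 alternatives. *Mki67*, the gene of the proliferation marker Ki-67, had 11.98 and 12.74 against 10.62 and 11.45, a difference of −1.33 (adjusted p = 0.146). In bulk RNA, fewer cycling cells and less of these mRNAs per cell cannot be told apart.

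Of 26 macrophage lineage genes 8 fell, 1 rose, and 17 did not pass, with a median of −0.47 that was −0.08 under 75th percentile scaling, and without untreated replicate 1 or 2, 4 and 3 fell. *Csf1r*, the M-CSF receptor, had 18.05 and 17.80 against 17.56 and 17.31, a difference of −0.49 (adjusted p = 0.11), and *Adgre1* (F4/80) one of −0.50 (adjusted p = 0.237). *Ccr2*, the receptor that draws monocytes out of the bone marrow, fell from 10.90 and 10.43 to 6.56 and 6.85 (−3.96, standard error 0.20, adjusted p = 0.00562). The fractalkine receptor *Cx3cr1* fell by 2.58 (adjusted p = 0.00399). The transcription factor *Maf* fell by 1.76 (adjusted p = 0.00454). *Tfec*, a MiT family factor of macrophages, was the one that rose, by 3.84 (adjusted p = 0.0174). With the 4 arrays alone 0 genes of this list rose and 6 fell by limma.

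Among 19 receptors for chemoattractants, 3 rose and 5 fell, and 3 fell with the 4 arrays alone or without untreated replicate 2. Besides *Ccr2* and *Cx3cr1*, *P2ry6*, the UDP receptor, fell by 1.75 (adjusted p = 0.00399), while *Ccrl2*, a chemerin-binding receptor, rose from 8.43 and 8.65 to 13.16 and 13.53 (adjusted p = 0.00437). Of 20 scavenger and efferocytosis receptors, 2 rose and 3 fell, and without either untreated array 1 rose and 0 fell by limma. *Olr1* (LOX-1), a receptor for oxidized LDL, was below reliable detection in untreated cells and was at least 30.5-fold higher (adjusted p = 0.00384). *Lrp1*, a receptor for apoptotic cells, fell by 1.37 (adjusted p = 0.0179) and *Stab1* by 1.23 (adjusted p = 0.0209), each in 9 of 15 alternatives. *Cd36* had a difference of 0.45 (adjusted p = 0.528) and *Marco* of 0.40 with overlapping groups.

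**Figure D5:**
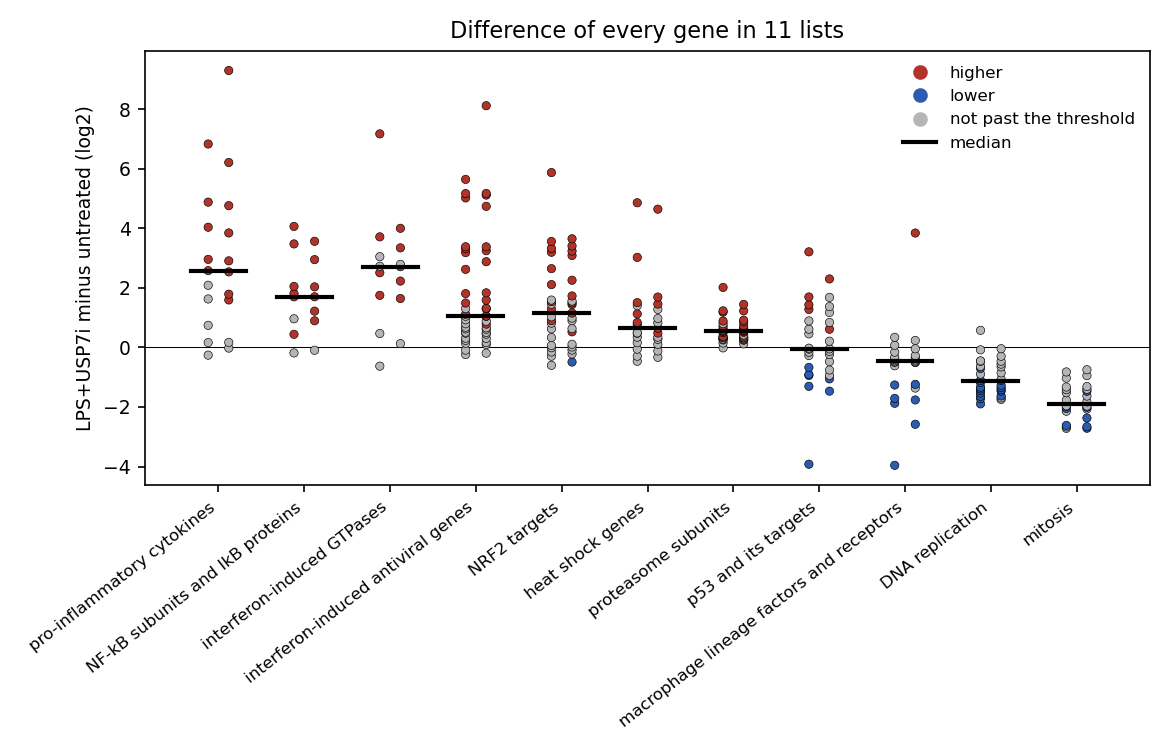
Difference of every gene (LPS+USP7i minus untreated, log2, y axis) in 11 lists, with red points for genes that rose, blue points for genes that fell, gray points for genes that did not pass the threshold, and black lines for list medians. Medians run from 2.71 for the interferon-induced GTPases through 0.54 for proteasome subunits to −1.89 for mitosis genes.

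Of 25 cholesterol synthesis genes 2 rose and 4 fell, with the 4 arrays alone 1 rose and 0 fell, and without either untreated array 0 passed by limma, against 2 and 6 at an unadjusted p under 0.05 with all arrays. Of 21 lipid efflux and storage genes 2 rose and 0 fell by limma, with 5 lower at an unadjusted p under 0.05 and 4 lower with the replicate block, and the median of −0.24 was 0.09 under 75th percentile scaling. *Ch25h*, which makes 25-hydroxycholesterol, was the clear exception among lipid genes and rose from 6.91 and 7.57 to 12.04 and 12.53 (adjusted p = 0.00644). Of 18 glycolysis genes 4 rose, led by the glucose transporter *Slc2a1* with 1.69 (adjusted p = 0.0348), with 0 passing by limma with the 4 arrays alone and 8 rising under 75th percentile scaling, where the median went from 0.11 to 0.48. Of 38 genes of the TCA cycle and respiratory chain 7 fell and 1 rose, with a median of −0.28 that was 0.01 under 75th percentile scaling. In the fit of the 4 arrays alone 4 fell, and without either untreated array 0 fell by limma, against 15 lower at an unadjusted p under 0.05 with all arrays. The fumarase gene *Fh1* fell by 0.75 (adjusted p = 0.0112). Of 32 lysosome genes 1 rose and 2 fell, with a median of −0.10 that was 0.31 under 75th percentile scaling, where 8 rose and 1 fell, and with the 4 arrays alone 1 rose and 0 fell by limma, against 1 and 8 at an unadjusted p under 0.05 with all arrays. Of 20 aminoacyl-tRNA synthetases 4 rose and 2 fell, 2 rose and 0 fell with the 4 arrays alone, and 0 passed without either untreated array by limma, against 5 and 4 at an unadjusted p under 0.05 with all arrays. *Tfeb*, the master regulator of lysosomal genes, fell by 1.97 (adjusted p = 0.0291). Of 41 cytosolic ribosomal protein genes 0 passed by limma, with 1 higher and 6 lower at an unadjusted p under 0.05, and their median of −0.15 was 0.28 under 75th percentile scaling.

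The remaining decreases among the 12 largest were spread over several functions. The lipoprotein lipase inhibitor *Angptl4* had 11.42 and 10.77 in untreated and 7.92 and 6.37 in LPS+USP7i cells and fell by 3.95 (adjusted p = 0.0284), in 10 of 15 alternatives. *Lpar6*, a receptor for lysophosphatidic acid, had 13.68 on both untreated arrays and 10.32 and 10.09 in LPS+USP7i cells and fell by 3.47 (standard error 0.10, adjusted p = 0.00384). *Gpr146* fell by 3.77, the transcription factors *Sox4* and *Lyl1* by 3.66 and 3.58, and the histone gene *H1f5* by 3.56. *Il16* fell by 3.55, *Pimreg* by 3.49, and the glycosyltransferase *B3gnt8* by 3.17. The adjusted p values of these genes lay between 0.00543 and 0.024. *H1f5* passed in 10 of 15 alternatives and not with the 4 arrays alone, *Pimreg* in 11, *Sox4* in 12, and *Il16* in all 15. Among genes lost from the measured range, *Gpr183* (EBI2), the receptor for oxysterols derived from 25-hydroxycholesterol, had 8.16 and 7.93 in untreated cells and was below reliable detection in LPS+USP7i cells, at least 13.3-fold lower (adjusted p = 0.0236). The zinc finger genes *Zfp810* and *Zfp760* were at least 10.6-fold and 5.91-fold lower (adjusted p = 0.0192 and 0.00718). *Gpr183* and *Zfp810* each passed in 10 of 15 alternatives, and not with the 4 arrays alone, whereas *Zfp760* passed in 14. In all, 139 genes were well above background only in untreated cells and lower, and 135 only in LPS+USP7i cells and higher.

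Of the named genes, the probes lie on build mm9 at chr5:92775781-92775840 for *Cxcl10*, chr3:50169700-50169759 for *Slc7a11*, chr2:118354496-118354555 for *Bmf*, and chr9:124022948-124023007 for *Ccr2*.

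Markers of other cell types were read on the same arrays. The summed signal of 8 macrophage markers on the linear scale was 678519.6 and 664960.4 in untreated and 565235.6 and 510502.5 in LPS+USP7i cells, lower on both LPS+USP7i arrays. Of these markers 7 had a negative difference, with a median of −0.42 that was −0.05 under 75th percentile scaling, and *Fcgr1*, an Fc receptor gene, fell by 1.26 (adjusted p = 0.0374). The summed signal of 9 neutrophil markers was 5251.6 and 6964.5 in untreated and 6210.2 and 9799.6 in LPS+USP7i cells. On at least 1 untreated array 8 of 9 were above background. The sum was the higher in replicate 2 of both groups and with LPS+USP7i in both replicates. The largest single part of it on each array came from *Elane*, which had a difference of 0.20 (adjusted p = 0.54 by limma). *S100a9*, a neutrophil marker, had 7.68 and 10.72 in untreated and 8.35 and 11.57 in LPS+USP7i cells, higher in replicate 2 of both groups and higher with LPS+USP7i in both replicates, with overlapping groups. Its partner *S100a8* had 9.18 and 10.00 against 10.39 and 10.94, a difference of 1.07 without overlap (adjusted p = 0.359). *Ly6g* had 10.11 and 9.12 against 9.81 and 9.08, and *Mpo* (myeloperoxidase) had 8.39 and 6.45 against 6.49 and 4.84, a difference of −1.75 (adjusted p = 0.504). By limma 0 of the 9 passed, and 0 had an unadjusted p under 0.05, while with the replicate block 1 was lower. The sum of 7 B cell markers was the higher in replicate 1 of both groups and the lower with LPS+USP7i in both replicates, with 1079.7 and 677.8 in untreated and 737.1 and 323.4 in LPS+USP7i cells. Most of this sum came from *Cd79b*, with 9.68 and 9.23 against 8.56 and 7.69 (adjusted p = 0.142), so the sum mainly follows that gene. Of the 7 B cell markers, 3 had a positive and 4 a negative difference, and *Pax5* was at least 2.08-fold higher (adjusted p = 0.0105). For 8 T cell markers the sum was 8543.8 and 9672 in untreated and 7521.5 and 7348.8 in LPS+USP7i cells, the lower with LPS+USP7i. Most of it came from *Cd28*, with 12.61 and 12.88 against 12.23 and 12.33 (adjusted p = 0.0873), so it mainly follows that gene. Of the 8 markers, 4 had a positive and 4 a negative difference. *Cd3g* and *Cd8a* were not above background on any of the 4 arrays, and *Lck* was higher by 1.75 (adjusted p = 0.0171). The sum of 6 NK cell markers was 508.5 and 429.4 in untreated and 631.2 and 565.8 in LPS+USP7i cells, the higher with LPS+USP7i. Most of it came from *Klra8*, with 8.10 and 7.54 against 8.63 and 8.06 and overlapping groups, and from *Prf1*, with a difference of 0.105. Of the 6 NK cell markers, 3 had a positive and 3 a negative difference, and 0 passed by limma. On no array were 2 of them above background. Those of 6 fibroblast, 5 mast cell, and 4 erythroid markers were between 22.4 and 96.6. Of the 6 dendritic cell markers, *Siglech* had 15.46 and 15.21 against 15.65 and 15.08, *Zbtb46* was at least 4.41-fold higher (adjusted p = 0.00806), and the other 4 were not above background on any array. What part other cells had in the differences above was not tested.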

How the data were processed

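The authors deposited 1 scanner file for each array, in which Agilent Feature Extraction gives the processed signal of a spot as a background-subtracted, detrended intensity, and a table of log2 values that they had quantile-normalized. From the intensity, spots flagged as outliers were left out, log2 values were quantile-normalized over 6 arrays, spots of a probe were averaged, and limma 3.58.1 (R 4.3.3) fitted the groups without a block. The contrast was LPS+USP7i minus untreated, with Benjamini-Hochberg adjustment over 55680 probes and a threshold of 0.05. The LPS arrays entered only the normalization and the spread. Residual and prior degrees of freedom were 3 and 1.05, and p-values measure only the spread between these samples. An exact permutation test of 2 against 2 arrays cannot go below p = 0.333. Of the probes, 26863 were named by accession, 3752 by symbol, and 623 by synonym in RefSeq, and each gene was represented by its brightest probe over the 4 arrays. A fold against a group not well above background on either array is a lower bound, taken against the lowest signal well above background or the probe's own, whichever was higher. Genes were named by rule. It took the 12 largest differences in each direction that passed the threshold, were well above background on all 4 arrays, and had groups without overlap. It also took the 6 largest bounds in each direction and every marker of 9 cell types. Of 39 lists it took key genes and up to 4 calls in each direction. Some genes that this rule names are not reported here. Members and lists were chosen with earlier results of these data known. Tested on simulated data for this contrast, 142 of 200 probes changed by 3 on the log2 scale were recovered among 55633, with 11 false calls.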

Additional observations from a re-analysis of the deposited data

How the results depend on the processing

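The counts of 1588 higher and 2662 lower genes were 976 and 1660 with the 4 arrays alone and 1054 and 1367 with a log2 difference of at least 1. With 75th percentile scaling 7549 were higher. Leaving out 1 array at a time gave between 362 and 1429 higher and between 431 and 1715 lower genes. The lowest counts came without untreated replicate 2. Removing either LPS array left the other without a residual, so both gave the same counts. A lone array of a group was assumed to vary like the other groups. With the replicate number as a block, 1598 were higher and 2880 lower, and 19 in place of 8 mitosis genes, 6 in place of 3 scavenger receptors, and 4 in place of 0 lipid efflux genes fell. The difference between replicates 1 and 2 of a group correlated between untreated and LPS+USP7i cells with r = 0.398 over 20721 probes. Between LPS alone and untreated cells r was 0.468, and between LPS alone and LPS+USP7i cells 0.422. The labels do not say, however, that a number marks a shared experiment. Of 212 named genes called, 67 were called under the main setting and all alternatives, 136 with the 4 arrays alone, 191 with the deposited values, 84 without untreated replicate 1, and 73 without untreated replicate 2. *Cd80* had a difference of 0.13 with the mean of its probes. Under 75th percentile scaling 6 named genes past the threshold in either setting changed sign. Among them were *Lyz2* with a difference of 0.37, *Blk* of 0.63, *Eomes* of 0.64, *Pdgfra* of 0.64, and *Cma1* of 0.62. *Blk*, *Eomes*, *Pdgfra*, and *Cma1* were not well above background on any of the 4 arrays. The median difference of all probes under this scaling was 0.546. Of 310 named genes, 52 that did not pass changed sign under some alternative. The cause was not tested. Of 39 list medians, 10 changed sign under some alternative, 8 of them under 75th percentile scaling. With 2 arrays in a group the number of arrays limits the precision, and 8210 genes were not well above background on any of the 4 arrays.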
